A study of Mus musculus with 183 samples.

Results

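The genes described here encode the core histones H2A and H2B of the mouse histone gene clusters, or are annotated as their pseudogenes (Hist1h2aj, Hist1h2al and Hist3h2bb-ps). They were chosen by symbol, as every gene of the counts table whose symbol starts with Hist1h2a, Hist1h2b, Hist2h2a, Hist2h2b, Hist3h2a or Hist3h2b. This gave 39 of 53380 genes, 20 for H2A and 19 for H2B. Cluster 1 on chromosome 13 held 29 of them (chr13:21715763-23934851, GRCm38), cluster 2 on chromosome 3 held 6 (chr3:96219865-96270132) and cluster 3 on chromosome 11 held 3 (chr11:58948920-58956830). The processed pseudogene Hist1h2al lay apart from the clusters at chr13:51202727-51203065. Hist1h2aa and Hist1h2ba encode the testis-type H2A and H2B, known from male germ cells, and the other 37 are called S-phase copies here. That name is a label for all the rest, including the pseudogenes and Hist2h2be, which had no stem-loop match. Expression in S phase was not tested.

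Of the 39 genes, 32 passed the filter on low counts (15 H2A and 17 H2B). The other 7 were not tested. They were Hist1h2aj, with 49 reads over all 47 libraries, and Hist1h2ao, Hist1h2ap, Hist1h2bq, Hist1h2br, Hist2h2aa1 and Hist2h2aa2, with between 0 and 4 reads each. Reads that mapped to more than 1 place were not counted. In those genes at most 6.9% of the 50-base windows of the exons occurred at a single place in the genome. Their low counts therefore say nothing on their expression.

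The study examined cytoplasmic and nuclear RNA decay factors in mouse embryonic stem cells by crosslinking and analysis of cDNAs (CRAC), which maps where a tagged protein touches RNA, and by RNA sequencing. Of its 183 samples, the 47 libraries of an mRNA half-life experiment are used here. Clone 5F (Rosa26Cre-ERT2/- Skiv2lfl/fl) carries floxed alleles of Skiv2l, the helicase of the cytoplasmic Ski complex that feeds mRNA to the exosome. Clone 7E is labelled Rosa26Cre-ERT2/BirA-V6 (BirA-V5 in the study's methods) and Aven-/-, with Skiv2l3xFLAG-Avi/3xFLAG-Avi at the Skiv2l locus. The labels of its half-life libraries leave out floxed alleles, but those of its other RNA-seq libraries add Skiv2lfl/fl, and the methods list the same genotype. It thus lacks AVEN, an RNA-binding protein examined together with SKIV2L, and is a conditional Skiv2l knockout in which Cre deletes part of the tagged gene. The Cre recombinase, driven from the Rosa26 locus, was activated with 0.1 µM 4-hydroxytamoxifen (4OHT) for 4 days, or cells were left untreated (day 0). Transcription was then blocked with actinomycin D for 120, 240 or 360 min. The mock libraries, labelled 0 min, received vehicle for the full 360 min. The labels give the actinomycin D dose as 5 µg/µl and the study's methods as 5 µM. Each genotype is 1 clone, so clone and genotype cannot be told apart. Each group had 3 libraries, and the untreated clone 5F cells had 2 at 120 min. The methods describe them as technical replicates. The p-values below therefore measure only the spread between such libraries.

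Replication-dependent histone mRNAs are made in S phase, when new DNA must be packed into nucleosomes. Unlike other mRNAs they end in a conserved stem-loop in place of a poly(A) tail. The stem-loop binding protein holds this structure during processing, translation and decay, and these mRNAs are removed quickly when DNA synthesis stops. Most H2A and H2B genes are arranged head to head as pairs with a short shared promoter region.

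The stem-loops are shown because they set these mRNAs apart from nearly all others, and because they mark the 3′ end at which histone mRNAs are processed and bound. The motif was read from the members themselves, as the most frequent 16-base hairpin (a stem of 6 paired bases around a loop of 4) in the 150 bases after their stop codons, on the gene strand. It was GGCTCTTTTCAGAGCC. With at most 1 mismatch it was present in 35 of the 36 members with an annotated stop codon, against 0.244% of 21723 protein-coding genes of the annotation, the members included. None was found in Hist2h2be. The match was exact in 28 members. Positions are counted from 1 at the 5′ end of these 16 bases. Hist1h2ba, Hist1h2bb, Hist1h2bk, Hist1h2bl and Hist2h2ab carried C10A in the loop, Hist2h2ac carried C10T there, and Hist1h2an carried C16T at the end of the stem. The sequences below come from the GRCm38 genome, 5′ to 3′ on the gene strand, and capitals mark the 16 motif bases. Those shown are the testis-type pair, abundant H2A and H2B mRNAs, Hist1h2an with its changed stem and Hist3h2a, whose mRNA decayed slowly.
Hist1h2aa, chr13:23934886-23934911, plus strand: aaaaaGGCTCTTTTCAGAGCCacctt
Hist1h2ak, chr13:21753377-21753402, minus strand: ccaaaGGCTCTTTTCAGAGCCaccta
Hist1h2an, chr13:21786773-21786798, minus strand: acaaaGGCTCTTTTCAGAGCTaacac
Hist2h2ac, chr3:96220413-96220438, minus strand: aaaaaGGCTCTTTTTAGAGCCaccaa
Hist3h2a, chr11:58955167-58955192, plus strand: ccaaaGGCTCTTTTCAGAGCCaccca
Hist1h2ba, chr13:23933725-23933750, minus strand: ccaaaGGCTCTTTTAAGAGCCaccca
Hist1h2bb, chr13:23747198-23747223, plus strand: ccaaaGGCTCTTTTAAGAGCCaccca
Hist2h2bb, chr3:96270166-96270191, plus strand: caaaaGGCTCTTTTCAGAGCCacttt
Hist1h2ba and Hist1h2bb had the same 26 bases here, although one is testis-type and the other an S-phase copy.

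Promoters are shown for 3 H2B genes because the testis-type member and the 2 most abundant members by counted reads share the CCAAT and octamer letters. They are the 250 bases before the RefSeq start (GRCm38.p6), and capitals mark the letters ATTTGCAT (the octamer), TATAAA and CCAAT, or ATTGG where CCAAT lies on the opposite strand. Motifs were counted on both strands of the window from 250 bases before to 50 after each start.
Hist1h2ba, chr13:23934157-23934406, minus strand: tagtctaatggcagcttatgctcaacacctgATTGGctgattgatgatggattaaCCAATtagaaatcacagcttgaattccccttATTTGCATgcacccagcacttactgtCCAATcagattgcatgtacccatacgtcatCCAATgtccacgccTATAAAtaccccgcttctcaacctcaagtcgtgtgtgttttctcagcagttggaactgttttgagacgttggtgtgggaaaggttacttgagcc
Hist1h2bb, chr13:23746484-23746733, plus strand: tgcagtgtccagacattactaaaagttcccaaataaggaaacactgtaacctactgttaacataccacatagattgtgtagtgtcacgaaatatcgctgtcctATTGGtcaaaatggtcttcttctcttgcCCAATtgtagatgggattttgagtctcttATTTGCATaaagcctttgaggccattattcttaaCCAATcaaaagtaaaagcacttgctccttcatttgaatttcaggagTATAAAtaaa
Hist2h2bb, chr3:96269450-96269699, plus strand: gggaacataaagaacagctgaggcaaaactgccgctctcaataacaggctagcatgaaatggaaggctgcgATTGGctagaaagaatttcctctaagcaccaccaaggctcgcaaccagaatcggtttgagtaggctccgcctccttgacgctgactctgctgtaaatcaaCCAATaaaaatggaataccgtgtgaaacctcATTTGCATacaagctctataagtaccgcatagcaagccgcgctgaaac
CCAAT was present in all 17 H2A and all 17 H2B promoters that matched a member, against 37.4% of 32851 RefSeq promoters. The octamer ATTTGCAT was present in 7 of 17 H2A and 7 of 17 H2B promoters, against 1.74%. TATAAA was present in 11 of 17 H2A and 8 of 17 H2B promoters, against 13.6%. The 17 H2B promoters belong to 16 genes, as Hist1h2be has more than 1 start. Windows of head-to-head genes can overlap, so 1 site can count for both families. These matches are descriptions of the letters and say nothing on binding.

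Each library held between 24440935 and 34114250 counts. In mock cells the 39 genes took between 0.117% of all counts (clone 5F, day 0) and 0.183% (clone 7E, day 4). All levels below are normalised CPM. These are counts divided by size factors over all genes within a time point, on the scale of the mean mock library. Time points were scaled to each other by the ERCC spike-in RNAs added with the lysis buffer, with 1 factor per time point. Skiv2l checks the labels. Its mock level in clone 5F was 143 to 145 CPM at day 0 and 132 to 153 CPM in the libraries labelled day 4, so it did not fall (log2 change -0.01, adjusted p = 0.922). The floxed exons are a part of the gene only, so the count over the whole gene checks the deletion in part. In clone 7E, Skiv2l was at 31.2 to 35.9 CPM at day 0 and 12.7 to 14.0 CPM at day 4. It was thus below every clone 5F mock library already before 4OHT. Aven was at 32.1 to 35.4 CPM in all clone 5F mock libraries and at 1.33 to 2.97 CPM in those of clone 7E. Counts relative to spike-ins in the mock libraries of clone 7E lay between 312 and 322 at day 0 and between 151 and 156 at day 4. Fewer cells in the lysate and less RNA per cell cannot be told apart in such bulk samples. All 8 stem cell markers of the fixed list, Pou5f1 and Sox2 among them, were measured in every group.

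Both families were expressed in mock cells, and a few copies gave most of the counted reads. Abundance is judged by counted reads throughout, and reads that mapped to more than 1 place are missing from them. The mean mock level per kilobase of exon was taken over the mock libraries of both clones and both days. It was highest for Hist2h2bb (1197 CPM per kb), followed by Hist1h2bb (350.0), Hist1h2ak (245) and Hist1h2bj (188). Hist1h2ab reached 126, Hist1h2bk 119, Hist1h2bl 114, Hist1h2ai 98.8, Hist2h2ac 94.1 and Hist1h2bh 43.5 CPM per kb. The testis-type genes lay lower than these, at 32.5 (Hist1h2aa) and 41.3 (Hist1h2ba) CPM per kb. In this mean over both days they were within the range of the remaining S-phase copies, such as Hist1h2ae (34.0) and Hist1h2ad (22.4). In untreated clone 5F cells alone, Hist1h2aa was lower, at 2.47, 2.22 and 2.54 CPM, not divided by exon length. Hist1h2ae was then at 12.9, 12.5 and 9.54 CPM and Hist1h2ad at 12.4, 12.6 and 10.6 CPM. Hist2h2be (1.01) and Hist3h2a (0.949), with the longest exons in their clusters, were the lowest of the tested members. The order changed when exon length was scaled by the share of unique 50-base windows. Hist2h2bb (1197) was then followed by Hist1h2ai (998), Hist1h2bl (662), Hist1h2bb (584) and Hist1h2ak (514 CPM per unique kb). Exon bases of Hist2h2bb are shared in full with the gene models Gm20628 and Gm42743. Those of the H2A genes of cluster 1 are shared in part (at least 9.9%) with other gene models. The same holds for Hist2h2ab (68.2%), Hist3h2a (33.0%, with Gm44313 and Trim17), Hist1h2al (32.2%), Hist2h2ac (27.1%) and Hist1h2be (11.2%). These overlaps come from a later annotation release than the one the authors counted on. How reads in shared bases were assigned was not examined, so reads of such neighbours may be mixed with those of the histone gene.

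The summed mock level of H2A mRNAs was 266 ± 15.5 CPM (SD, n = 3) in clone 5F at day 0 and 490.4 ± 74.2 CPM in the libraries labelled day 4. In clone 7E it was 366 ± 37.8 CPM at day 0 and 486 ± 55.8 CPM at day 4. The H2B sums were 876 ± 44.0 and 1241 ± 102 CPM in clone 5F, and 1136 ± 53.9 and 1389 ± 101 CPM in clone 7E. No day 4 library overlapped the day 0 libraries of its own clone for either family on this scale, although in clone 7E most members were lower at day 4 once each library was scaled by its own ERCC total. The ratio of the H2B sum to the H2A sum was 3.29 ± 0.0757 (SD, n = 3) at day 0 and 2.55 ± 0.164 at labelled day 4 in clone 5F, and these libraries did not overlap. In clone 7E the ratio was 3.11 ± 0.190 and 2.88 ± 0.275, and the libraries overlapped. No test was run on sums, because the members were proposed with results of these data known.

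In untreated cells most of these mRNAs were almost gone 2 h after the transcription block. The median share of the mock level left at 120 min over the 32 tested members was 0.729% in clone 5F and 1.68% in clone 7E. H2A members had medians of 0.485% and 1.39%, and H2B members 0.798% and 1.77%. In clone 5F, 27 of the 32 were under 2%, and in clone 7E 20 were. Hist2h2bb, the most abundant H2B mRNA, fell from 373, 387 and 348 CPM in the mock libraries of clone 5F to 1.29 and 1.79 CPM at 120 min. In clone 7E it fell from 451, 466 and 442 CPM to 4.65, 4.34 and 3.98 CPM.

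Only Hist3h2a, an H2A gene of cluster 3, and Hist2h2be, an H2B gene of cluster 2, kept more than 10% at 120 min in untreated cells of both clones. Hist3h2a had 38.3% left in clone 5F and 22.4% in clone 7E, and Hist2h2be had 23.2% and 16.3%. At 360 min 29.0% (clone 5F) and 23.4% (clone 7E) of Hist3h2a and 30.3% and 21.3% of Hist2h2be were left. In clone 5F Hist3h2a thus fell from 0.772 and 0.806 CPM at 120 min to 0.759, 0.553 and 0.479 CPM at 360 min, and these libraries did not overlap. Hist2h2be held no stem-loop match within the 150 bases searched, while Hist3h2a did. Of the exon bases of Hist3h2a, 33.0% are shared with other gene models, Trim17 among them. Among the more abundant S-phase copies the highest share at 120 min was that of Hist1h2bc in clone 5F, with 6.71% left, and of Hist1h2ae in clone 7E, with 7.61%.

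**Figure D1:**
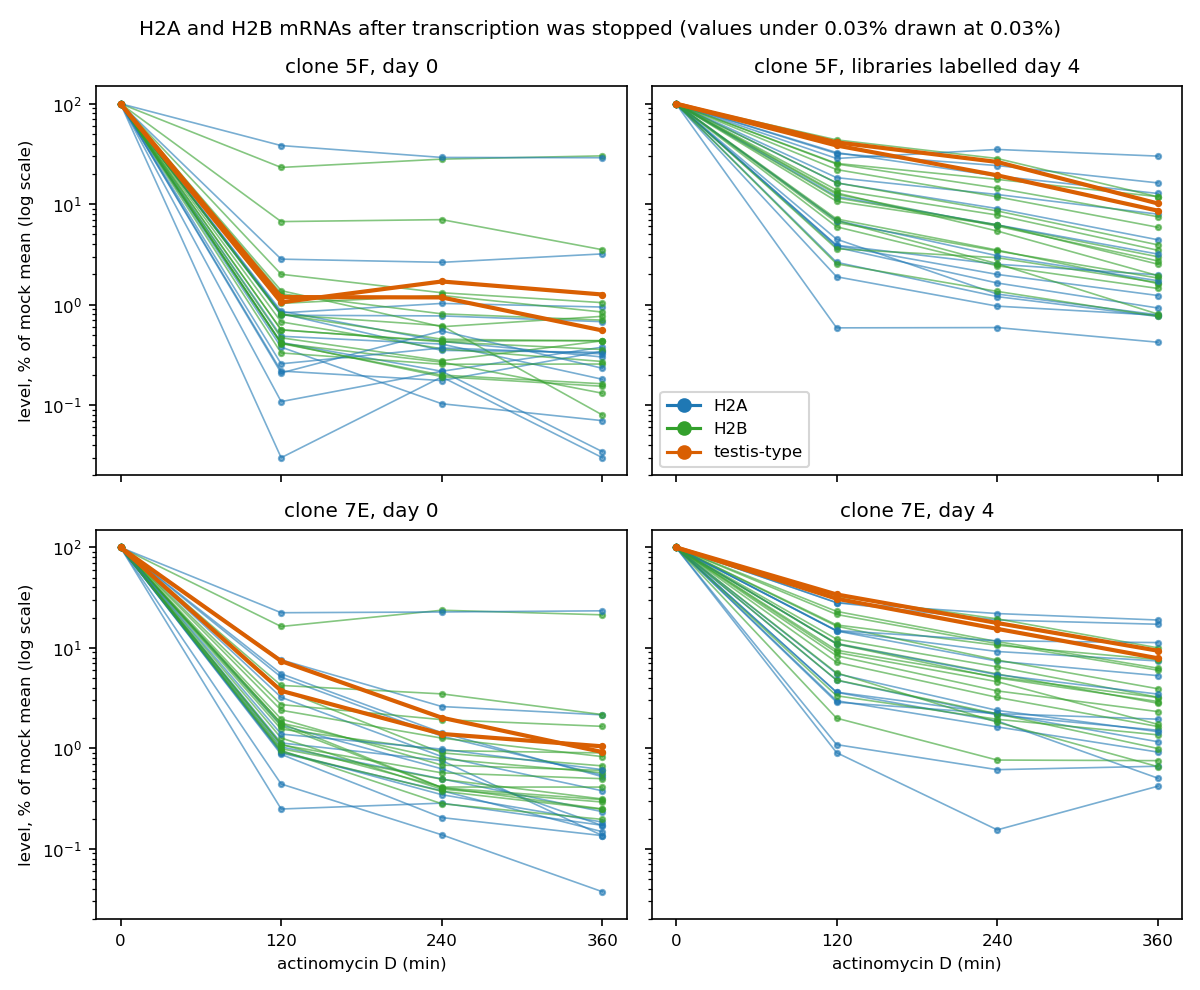
Share of the mock level left (percent, log axis) against minutes of actinomycin D in each clone at day 0 and day 4, with 1 line for each of the 32 tested members through its group means (H2A blue, H2B green, testis-type orange), and with values under the axis floor drawn at the floor. At day 0 most lines are under 2% at 120 min, and Hist3h2a (38.3% and 22.4%) and Hist2h2be (23.2% and 16.3%) run above the rest, while at day 4 the testis-type lines are among the highest (30.8% to 41.3%).

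After 4OHT, histone mRNAs were left at far higher shares 2 h after the block. The change was measured as the log2 of the share left at 120 min at day 4 over that at day 0. In clone 5F, 25 of the 32 tested members decayed slower in the libraries labelled day 4 and 0 faster, where 0.341% of the 18206 genes tested were called slower and 0.0989% faster (quasi-likelihood test of edgeR, p-values adjusted by Benjamini-Hochberg over all genes). In clone 7E the count was also 25 slower and 0 faster, against 1.16% of all genes called slower and 0.923% faster. The same 24 genes were called in both clones, 96% of each set. The median log2 change over the 32 members was 3.74 in clone 5F and 2.21 in clone 7E, and over all genes it was -0.00 and -0.02. In each clone 24 to 26 of the members were called when each library was scaled by its own ERCC total. Members made up 40.3% of the 62 genes called slower in clone 5F and 11.8% of the 212 called in clone 7E.

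Both families took part in this change. Of the H2A genes 11 of 15 decayed slower in each clone, with median log2 changes of 3.48 (clone 5F) and 2.01 (clone 7E). Of the H2B genes 14 of 17 did, with medians of 3.89 and 2.61. The median share left at 120 min was lower for H2A genes than for H2B genes, at 6.87% against 12.6% in clone 5F labelled day 4 and 5.53% against 10.9% in clone 7E at day 4. The sums over the families did not show this order, since 12.4% ± 1.44 (SD, n = 3) of H2A and 11.8% ± 0.864 of H2B were left in clone 5F, and 11.2% ± 0.103 and 10.7% ± 1.52 in clone 7E. At 360 min the H2A sum was the higher. H2A was then at 4.84% ± 0.568 and H2B at 2.75% ± 0.543 in clone 5F, and at 5.21% ± 1.00 and 2.57% ± 0.323 in clone 7E, and libraries of the families did not overlap in either clone. The medians over genes still ran the other way at 360 min, at 1.98% for H2A and 2.72% for H2B in clone 5F and 1.95% and 2.93% in clone 7E. The ratio of H2B to H2A sums was down to 1.46 ± 0.391 in clone 5F and 1.46 ± 0.403 in clone 7E at that time.

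Hist2h2bb and Hist1h2bb are the most abundant members and both changed strongly. At 120 min Hist2h2bb stood at 32.0, 29.0 and 30.5 CPM in clone 5F labelled day 4, and at 36.0, 29.7 and 28.6 CPM in clone 7E at day 4. All of these lay above every day 0 library at that time. The share left rose by 4.04 ± 0.15 on the log2 scale (SE, adjusted p = 3.90e-15, edgeR) in clone 5F and by 2.56 ± 0.12 (adjusted p = 4.42e-13) in clone 7E. Hist1h2bb went from 0.412 and 0.629 CPM at 120 min in untreated cells to 47.0, 41.3 and 39.5 CPM in clone 5F, a log2 change in the share of 5.74 ± 0.24 (adjusted p = 2.98e-14). The clone 7E libraries went from 3.29, 3.31 and 2.37 CPM to 54.2, 41.6 and 41.2 CPM, a change of 3.68 ± 0.16 (adjusted p = 2.50e-13).

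Hist1h2ak, the most abundant H2A gene by counted reads, stood at 0.334 and 0.529 CPM at 120 min in clone 5F at day 0. In the libraries labelled day 4 it stood at 24.4, 19.8 and 24.9 CPM. The clone 7E libraries stood at 2.65, 2.90 and 2.37 CPM at day 0, and at 19.1, 18.6 and 19.0 CPM at day 4. The libraries of the days did not overlap in either clone. The log2 change in the share was 4.40 ± 0.31 (adjusted p = 1.20e-09, edgeR) in clone 5F and 2.19 ± 0.21 (adjusted p = 2.06e-07) in clone 7E. The other abundant H2A genes also decayed slower. Hist2h2ac, whose stem-loop carries C10T, changed by 4.69 and 2.66, Hist1h2ab by 2.98 and 2.01 and Hist1h2ai by 2.17 and 2.06 (clone 5F and clone 7E). Of the abundant H2B genes, Hist1h2bj changed by 4.11 and 3.26 and Hist1h2bh by 4.85 and 3.91, the latter the largest change of a member in clone 7E.

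The largest change of an H2B gene in clone 5F was that of Hist1h2bm, with 0.0514 and 0.0755 CPM at 120 min at day 0 and 8.51, 6.35 and 8.53 CPM in the libraries labelled day 4, or 6.17 ± 0.37 on the log2 scale (adjusted p = 3.44e-11, edgeR). In clone 7E it changed by 3.55. The largest for H2A was that of the pseudogene Hist1h2al, which had 0 reads at 120 min in clone 5F at day 0. Against a floor of 3 reads over both libraries its share left at labelled day 4 (32.6%) was at least 31.5-fold higher. In clone 7E the largest change of an H2A gene was that of Hist1h2an (3.38 ± 0.67, adjusted p = 0.00506), which rests on 3 reads at 120 min at day 0, or 0.249% left with an exact 95% Poisson interval of 0.0514 to 0.728%. This interval covers counting error only. This is the gene with C16T in its stem, and 2.98% of it was left at day 4.

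The remaining genes of clusters 2 and 3 fell into a group that moved with the rest and a group that did not. Hist2h2ab, with C10A in its loop, changed by 5.51 in clone 5F (on 1 read at 120 min at day 0, 0.209% with an interval of 0.00524 to 1.15%) and by 2.94 in clone 7E. Hist3h2ba changed by 2.52 and 1.99 and was called in both clones. Hist3h2bb-ps, a processed pseudogene, changed by 4.67 ± 0.81 in clone 5F (adjusted p = 0.00269, on 1 read at day 0) and by 1.85 ± 0.55 in clone 7E (adjusted p = 0.0856). Hist2h2be changed by 0.14 ± 0.34 in clone 5F and 0.05 ± 0.28 in clone 7E (adjusted p = 0.962), and was called in neither, as was Hist3h2a with -0.44 ± 0.35 (adjusted p = 0.817) and -0.57 ± 0.37 (adjusted p = 0.500). Hist2h2be and Hist3h2a are the pair that already kept a large share at day 0.

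In cluster 1, Hist1h2ad, Hist1h2ag, Hist1h2ah and Hist1h2bc were called in neither clone. Hist1h2bc stood at 1.49 and 2.37 CPM at 120 min at day 0 in clone 5F and at 1.84, 1.51 and 1.61 CPM at labelled day 4, so these libraries overlapped. Its log2 change of -0.90 ± 0.31 (adjusted p = 0.400, edgeR) was the lowest of an H2B gene, and in clone 7E it was -0.34 ± 0.30 (adjusted p = 0.642). Hist1h2ad, an H2A gene, had the lowest share left of all tested members after 4OHT, with 0.588% in clone 5F and 0.906% in clone 7E. Hist1h2bk, with C10A in its loop, changed by 0.88 ± 0.30 in clone 5F (adjusted p = 0.396) and by 1.01 ± 0.27 in clone 7E (adjusted p = 0.0483). Of the 5 members with C10A, Hist1h2bk was the sole one not called in clone 5F, and all 5 were called in clone 7E.

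**Figure D2:**
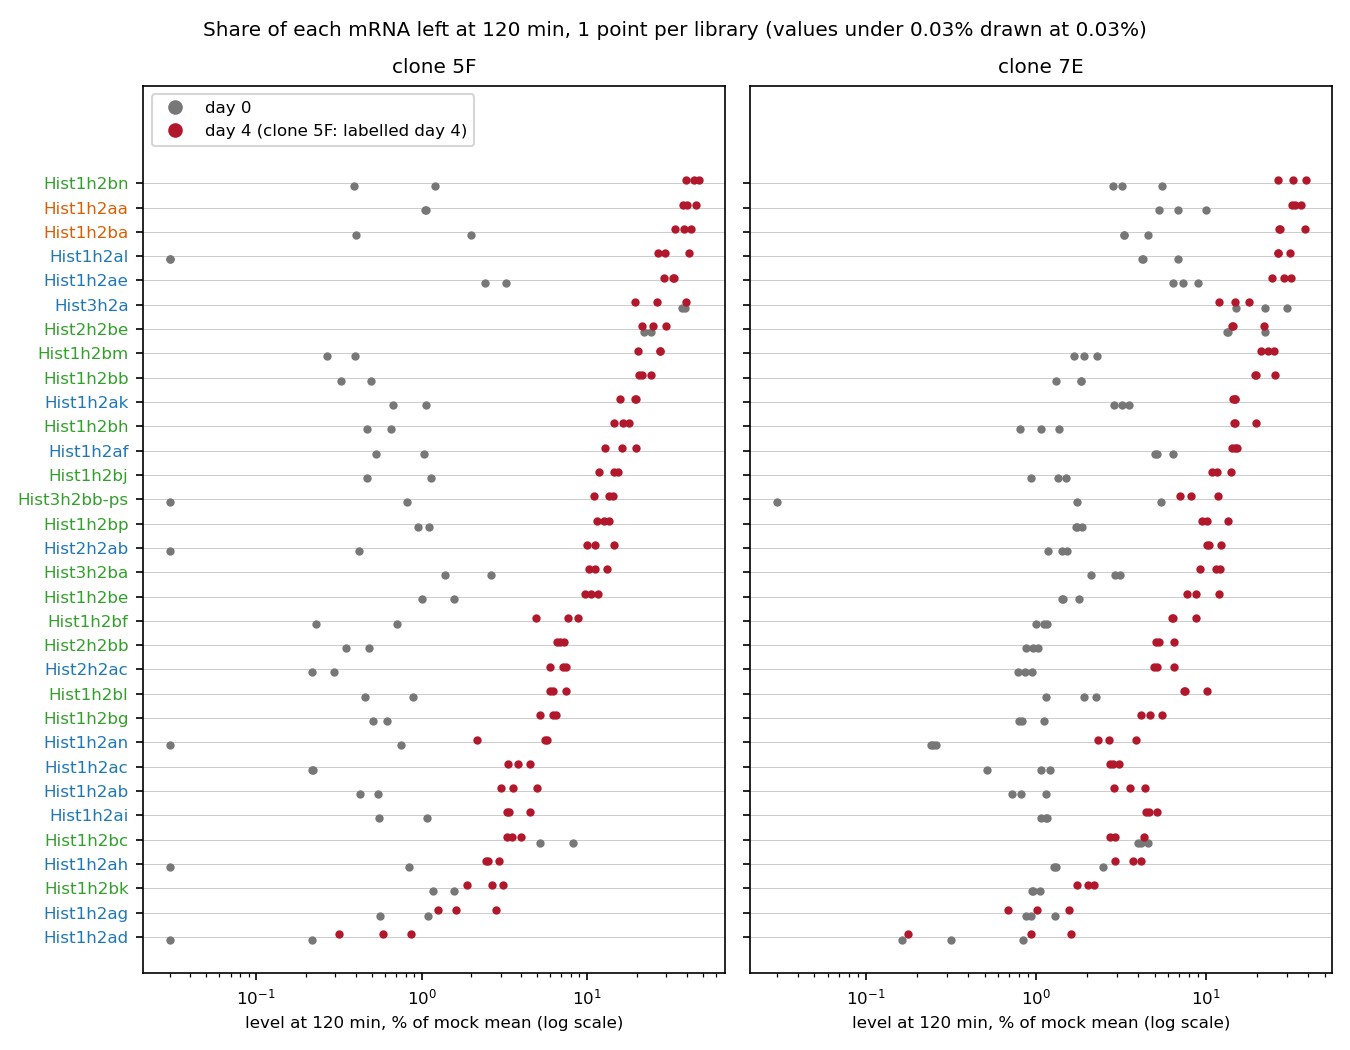
Share of the mock level left at 120 min (percent, log axis) for each of the 32 tested members in both clones, with 1 point per library at day 0 (grey) and at day 4 (red), and with values under the axis floor drawn at the floor. For most members the red points lie to the right of all grey points, while for Hist3h2a and Hist1h2bc they do not.

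The order of the members after 4OHT was alike in the clones. Across the 32 members the shares left at 120 min at day 4 had a Spearman correlation of 0.98 between clones, as a description of points that share the gene models and their mappability. In clone 5F the highest shares were those of Hist1h2bn (43.7%), Hist1h2aa (41.3%), Hist1h2ba (38.4%), Hist1h2al (32.6%) and Hist1h2ae (31.9%). In clone 7E they were those of Hist1h2aa (34.0%), Hist1h2bn (32.5%), Hist1h2ba (30.8%), Hist1h2ae (28.2%) and Hist1h2al (28.1%). Mappability had a Spearman correlation of 0.33 (clone 5F) and 0.28 (clone 7E) with the share left. Of the 18 members with over 50% unique windows 15 decayed slower in clone 5F, and of the 14 others 10 did.

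Genes of a head-to-head pair could differ widely. The clusters held 14 pairs of an H2A and an H2B gene with 172 to 305 bases between their annotated ends. For Hist1h2ag and Hist1h2bj, 1.90% and 13.8% were left at 120 min in clone 5F labelled day 4, and 1.09% and 12.2% in clone 7E. For Hist1h2ae and Hist1h2bg the H2A gene had the higher share, with 31.9% against 5.95% in clone 5F and 28.2% against 4.79% in clone 7E. For Hist1h2bf and Hist1h2ad the shares were 7.13% and 0.588% in clone 5F, and for Hist2h2ac and Hist2h2be 6.87% and 25.5%. Hist1h2ak and Hist1h2bn had 18.4% and 43.7%. The testis-type genes, which form a pair with 305 bases between them, had 41.3% and 38.4% in clone 5F and 34.0% and 30.8% in clone 7E. Some S-phase pairs were as close, such as Hist1h2ah and Hist1h2bk with 2.64% and 2.55% in clone 5F, and Hist1h2ac and Hist1h2bc with 2.88% and 3.34% in clone 7E.

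The testis-type mRNAs were low in untreated cells and rose after 4OHT, Hist1h2aa more than any other tested member. Hist1h2aa stood at 2.47, 2.22 and 2.54 CPM in the mock libraries of clone 5F at day 0, and at 19.7, 18.2 and 18.6 CPM in those labelled day 4. Clone 7E libraries went from 3.02, 4.33 and 4.31 CPM to 29.8, 23.8 and 23.2 CPM. No library of day 4 overlapped day 0 in either clone. The log2 change was 2.97 ± 0.13 (SE, adjusted p = 1.61e-13, edgeR) in clone 5F and 2.72 ± 0.11 (adjusted p = 1.16e-14) in clone 7E, the largest change of any tested member.

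Hist1h2ba, its H2B partner, stood at 6.33, 7.11 and 5.65 CPM in clone 5F at day 0 and at 19.8, 20.1 and 22.7 CPM in the libraries labelled day 4. Clone 7E libraries went from 9.79, 10.1 and 9.25 CPM to 30.1, 24.0 and 25.5 CPM. Here too the groups did not overlap. The log2 change was 1.70 ± 0.10 (adjusted p = 2.11e-11, edgeR) and 1.45 ± 0.09 (adjusted p = 1.26e-11), the largest of an H2B gene in each clone. With each library scaled by its own ERCC total, Hist1h2aa still rose by 1.62 (adjusted p = 1.49e-13) and Hist1h2ba by 0.35 (adjusted p = 0.00276) in clone 7E.

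The testis-type mRNAs also decayed slower at day 4. At 120 min Hist1h2aa had 1 read in each of the 2 libraries of clone 5F at day 0 (2 reads in all, 1.06% of the mock level, exact 95% Poisson interval 0.128 to 3.81%) and 8.63, 7.19 and 7.53 CPM at labelled day 4. The clone 7E libraries had 0.267, 0.387 and 0.207 CPM at day 0 and 9.30, 8.56 and 8.26 CPM at day 4. The log2 change in the share left was 5.10 ± 0.52 (adjusted p = 6.67e-07, edgeR) in clone 5F and 2.18 ± 0.25 (adjusted p = 4.83e-06) in clone 7E. Hist1h2ba had 0.0257 and 0.126 CPM at 120 min in clone 5F at day 0 and 8.85, 7.11 and 8.04 CPM at labelled day 4. Its log2 changes were 4.94 ± 0.41 (adjusted p = 2.15e-08) and 3.03 ± 0.25 (adjusted p = 2.07e-08) in clones 5F and 7E.

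Side by side with the S-phase copies, the testis-type sum kept the larger share at every time after the block at day 4. At 120 min 39.7% ± 4.03 (SD, n = 3) of it was left in clone 5F, against 11.3% ± 1.43 of S-phase H2A and 11.4% ± 0.807 of S-phase H2B. In clone 7E the shares were 32.4% ± 4.19, 9.96% ± 0.0992 and 10.3% ± 1.42. At 360 min they were 9.35% ± 2.44, 4.63% ± 0.627 and 2.65% ± 0.506 in clone 5F, and 8.61% ± 1.54, 4.98% ± 1.09 and 2.46% ± 0.315 in clone 7E. The libraries of the testis-type sum lay above those of both S-phase sums in each case. In clone 5F at day 0 the testis-type share at 120 min was 1.15% ± 0.803 (n = 2), against 0.929% ± 0.143 and 0.832% ± 0.0971, and these libraries overlapped. In clone 7E the testis-type share was already the larger at day 0, with 4.78% ± 0.771 (n = 3) left against 2.19% and 1.39%, and no libraries overlapped. The other replication-dependent histone mRNAs (H1, H3 and H4) kept 25.1% ± 2.45 and 24.6% ± 2.17 at 120 min after 4OHT, between the testis-type and the S-phase sums.

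**Figure D3:**
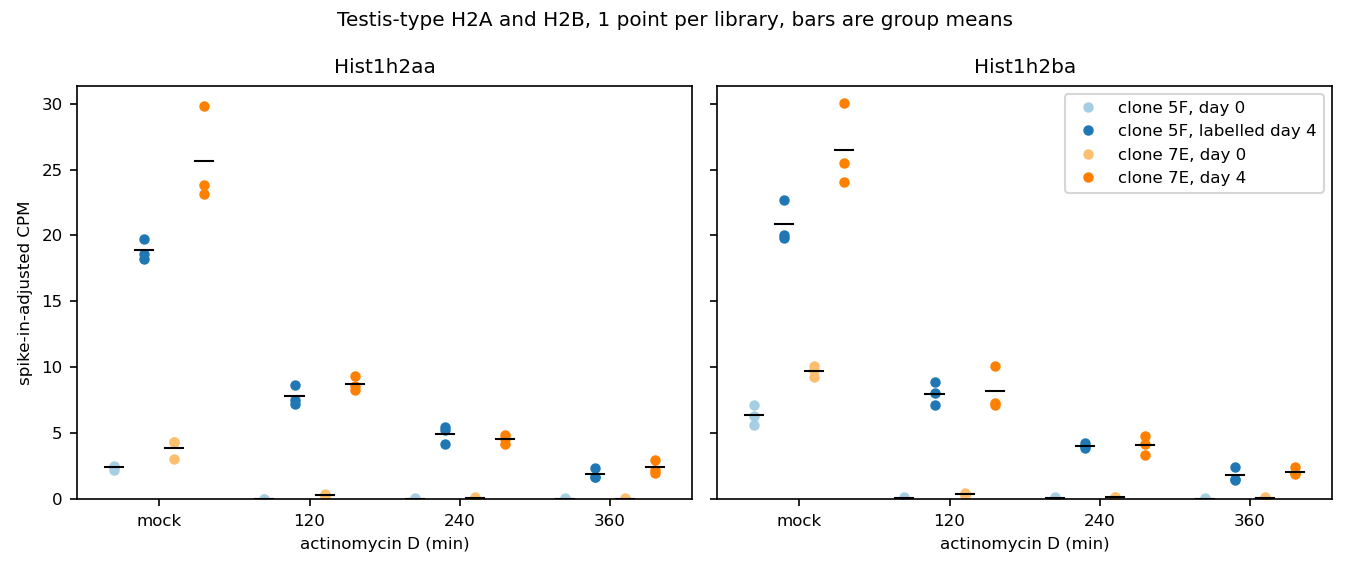
Level of Hist1h2aa and Hist1h2ba (normalised CPM, linear axis) against minutes of actinomycin D, with 1 point per library and bars at the group means, for both clones at day 0 and day 4. Spike-ins adjust the time points only, so mock levels of the days are relative to size factors over all genes. With own ERCC totals the log2 changes of the clone 7E mock levels were 1.62 (Hist1h2aa) and 0.35 (Hist1h2ba). The mock points of day 4 lie at 18.2 to 30.1 CPM and those of day 0 at 2.22 to 10.1 CPM, and the day 4 points stay above the day 0 points at 120 min.

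Markers of late male germ cells were absent or near 0 beside the testis-type mRNAs. Tnp1, Prm1 and Prm2 had 0 reads in all mock libraries. Tnp2 was at 0.0731 and 0.0355 CPM in replicates 2 and 3 of clone 5F labelled day 4, and at 0 in the other mock libraries. The other 4 of the 8 germ cell markers, Ddx4, Stra8, Sycp3 and Dazl, passed the filter on low counts. Ddx4 was the highest of them, at 26.0 to 40.9 CPM. The summed level of the 8 markers was 60.4 to 67.6 CPM at day 0 and 66.7 to 76.1 CPM at labelled day 4 in clone 5F, and 60.2 to 62.98 and 70.1 to 74.8 CPM in clone 7E. In clone 5F 0 of the 4 tested changed in either direction (1 at an unadjusted p under 0.05), and in clone 7E 2 rose and 1 fell. The part of such cells in the result was not tested.

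Mock levels of most S-phase copies also rose in clone 5F. In clone 5F 29 of the 32 tested members were higher at labelled day 4 and 0 lower, against 11.9% of 17209 genes called higher and 10.8% lower. The H2A count was 13 of 15 with a median log2 change of 0.71, and the H2B count 16 of 17 with a median of 0.67. Next to the testis-type genes, Hist1h2al (1.78), Hist1h2ae (1.41) and Hist1h2ak (1.32) rose most among H2A genes, and Hist2h2be (1.20) and Hist1h2bn (1.16) among H2B genes. Hist2h2bb, the most abundant, rose by 0.26 ± 0.05 (adjusted p = 0.000490, edgeR), from 373, 387 and 348 CPM to 443, 419 and 467 CPM. The 3 members not called were Hist1h2ad (0.25), Hist3h2a (-0.04) and Hist3h2bb-ps (-0.13), the last 2 with the smallest changes of an H2A and an H2B gene.

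In clone 7E 17 of the 32 were higher at day 4 and 0 lower, against 20.5% of all genes called higher and 19.4% lower, but with each library scaled by its own ERCC total 2 were higher (the testis-type genes) and 27 lower. That scaling moved the median of all genes by -1.10 on the log2 scale and put the members' median at -0.84, above that of all genes. The rise in clone 7E is therefore relative to the other mRNAs. The H2A count was 7 of 15 (median 0.24) and the H2B count 10 of 17 (median 0.28). Without replicate 1 the count was 10. Hist2h2bb changed by 0.30 ± 0.05 (adjusted p = 3.36e-05), Hist1h2ak by 0.65 and Hist2h2be by 0.96, while Hist1h2ad changed by -0.21 ± 0.12 (adjusted p = 0.199) and Hist1h2be by -0.03 ± 0.08 (adjusted p = 0.782), the smallest of each family.

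**Figure D4:**
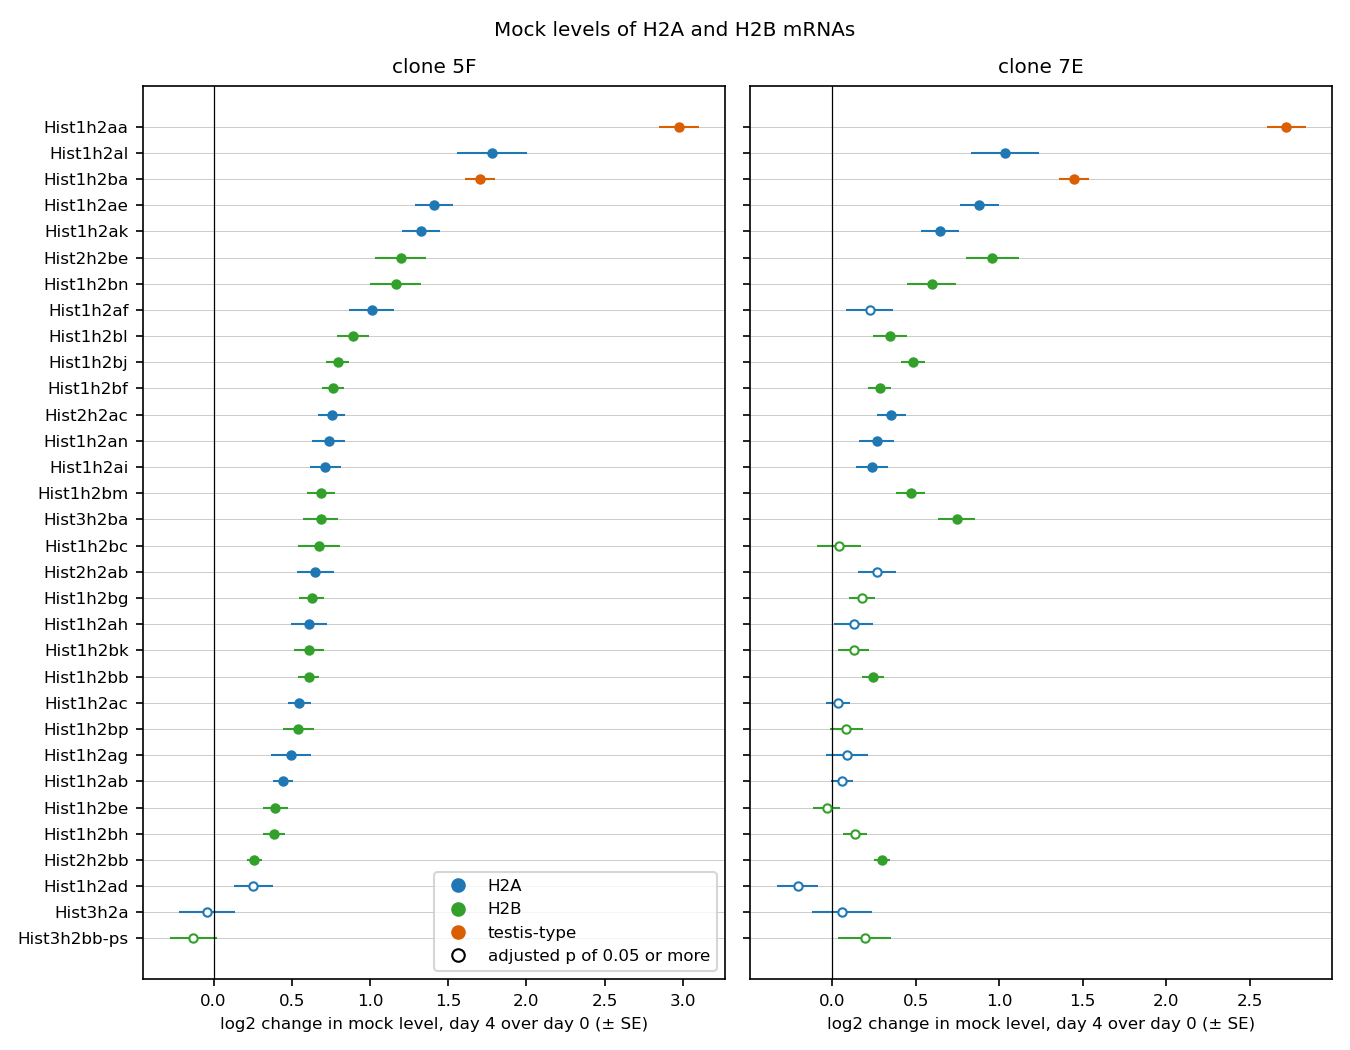
Log2 change of the mock level, day 4 over day 0, for the 32 tested members in clone 5F and clone 7E, as points with SE, relative to size factors over all genes, with open points for members not called. Hist1h2aa (2.97 and 2.72) and Hist1h2ba (1.70 and 1.45) stand to the right of most others. With own ERCC totals the points of clone 7E are lower by about the -1.10 shift of all genes, and 27 members are then called lower.

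The clones differed in untreated cells. Skiv2l itself was at 31.2 to 35.9 CPM in clone 7E against 143 to 145 CPM in clone 5F, and its part in the differences was not tested. In mock cells at day 0, 24 of the 32 members were higher in clone 7E than in clone 5F and 0 lower, against 18.1% of all genes called higher and 18.1% lower. With own ERCC totals 15 were higher and 1 lower. The H2A count was 10 of 15 (median log2 difference 0.39) and the H2B count 14 of 17 (0.42). The largest differences were 0.82 ± 0.24 (adjusted p = 0.00979, edgeR) for Hist1h2al and 0.92 ± 0.17 (adjusted p = 0.000106) for Hist1h2bn. Hist3h2a (-0.04 ± 0.18, adjusted p = 0.881) and Hist3h2bb-ps (-0.35 ± 0.15, adjusted p = 0.0792) had the lowest. At 120 min, Hist1h2ak (1.89 ± 0.37, adjusted p = 0.0391), Hist1h2bb (2.01 ± 0.28, adjusted p = 0.000586) and Hist2h2bb (1.20 ± 0.17, adjusted p = 0.000457) had more of their mock level left in clone 7E at day 0, against 0.0879% of all genes called slower and 0.0330% faster. These 3 are the most abundant members. Without replicate 1 the count was 1. The difference was not confined to the called genes. Over the 32 members its median was 1.29 with 27 positive, against a median of 0.007 over all genes. An unadjusted p under 0.05 (edgeR) was reached by 19 members and by 883 of 18206 genes. Of the 29 other replication-dependent histone genes, 12 were called slower in clone 7E.

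The change with 4OHT was also compared between clones in an interaction term, although clone 7E started from a lower Skiv2l level at day 0. For mock levels the change was lower in clone 7E for 16 members (8 H2A and 8 H2B) and higher for 0, against 5.29% of all genes called lower and 6.65% higher. The median difference was -0.44. Hist1h2af (-0.79 ± 0.20, adjusted p = 0.0103, edgeR) and Hist1h2bc (-0.63 ± 0.19, adjusted p = 0.0275) had the lowest values of each family. Without replicate 3 the count was 7, and with own ERCC totals it was 32. The testis-type genes differed by -0.25 ± 0.18 (Hist1h2aa, adjusted p = 0.443) and -0.26 ± 0.13 (Hist1h2ba, adjusted p = 0.256). For the share left at 120 min the change was lower in clone 7E for 3 members, Hist1h2ak (-2.21 ± 0.42, adjusted p = 0.0337), Hist1h2bb (-2.05 ± 0.32, adjusted p = 0.00336) and Hist2h2bb (-1.48 ± 0.20, adjusted p = 0.000315), against 0.0769% of all genes called lower and 0.00549% higher. Without replicate 2 the count was 1. The 3 called genes are those also called at day 0, and both comparisons use the same day 0 libraries. Over the 32 members the median was -1.18 with 2 positive, against a median of -0.02 over all genes. An unadjusted p under 0.05 (edgeR) was reached by 17 members and by 741 of 18206 genes. Of the 29 other replication-dependent histone genes, 10 were called lower.

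Over the whole course, fewer members passed a test on the slope from 0 to 360 min. The slope was slower at day 4 for 9 members in clone 5F (4 H2A and 5 H2B), against 0.134% of genes called slower and 0.0614% faster. It was slower for 12 in clone 7E (6 and 6), against 0.408% slower and 0.488% faster, and no member was called faster in either clone. The testis-type genes were among them in both clones, with changes of 0.82 ± 0.15 and 0.96 ± 0.15 log2 per h (Hist1h2aa and Hist1h2ba) in clone 5F and 0.76 ± 0.11 and 0.70 ± 0.13 in clone 7E. Leaving out any replicate number lowered the counts to between 2 and 3 in clone 5F and between 2 and 4 in clone 7E, and leaving out the mock libraries to 0 and 1. Half-lives fitted to all times had a median of 52.97 min for H2A and 51.9 min for H2B in clone 5F at day 0, and 68.4 and 73.3 min at labelled day 4. Those of clone 7E were 48.9 and 52.8 min at day 0 and 69.2 and 74.4 min at day 4. These half-lives depended on the times used, and the cause was not tested. From 0 and 120 min alone the medians were 17.7 and 18.8 min in clone 5F at day 0 and 31.2 and 40.4 min at labelled day 4, and 20.8 and 20.7 min in clone 7E at day 0 and 28.8 and 37.8 min at day 4. Hist1h2aa had half-lives of 72.8 and 114 min (clone 5F) and 61.1 and 107 min (clone 7E) over all times at day 0 and day 4. From 0 and 120 min alone they were 22.4 and 94.0 min (clone 5F) and 33.1 and 77.7 min (clone 7E). Its day 0 fit over all times in clone 5F rests on 0 to 5 reads per library after the block.

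Genes that act with these mRNAs were followed as lists. Of the other 29 tested replication-dependent histone genes, 25 decayed slower in each clone, and 27 (clone 5F) and 18 (clone 7E) had higher mock levels. Of 6 genes for replacement H2A variants, which are made outside S phase from polyadenylated mRNAs, 0 decayed slower, and H2afj decayed faster in clone 7E (-0.69). Their mock levels rose for 2 in clone 5F, and in clone 7E 1 rose and 3 fell. H2afx, which also has a stem-loop form of its mRNA, rose by 0.58 and 0.23. For the mock levels of the lists that follow, the shares of all genes called are the 11.9% higher and 10.8% lower (clone 5F) and 20.5% and 19.4% (clone 7E) given above, and the directions in clone 7E are relative to a median of all genes that moves by -1.10 with own ERCC totals. Of 16 genes for histone mRNA processing and turnover, 3 rose and 4 fell in clone 5F and 5 rose and 3 fell in clone 7E, the latter near the shares of all genes. Slbp, the stem-loop binding protein, changed by -0.21 and -0.17, Upf1, a helicase of nonsense-mediated and histone mRNA decay, by 0.36 and 0.35, and Sympk, a scaffold of the 3′ end cleavage complex, by 0.22 and 0.28. Of 22 DNA replication genes 0 rose, and 9 (clone 5F) and 11 (clone 7E) fell, with medians of -0.07 and -0.12. Of the 8 stem cell markers 2 rose and 1 fell in clone 5F, and 7 fell in clone 7E. Of 6 markers of early lineages 0 rose and 2 fell in each clone. Their part in the histone results was not tested.

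CRAC gave a further readout of the same mRNAs, in other cell lines with tagged proteins. The authors deposited for each mRNA the share of pooled CRAC counts that fell to MTR4, the nuclear exosome helicase, SKIV2L and XRN1. XRN1 is the exonuclease that degrades mRNA in the cytoplasm from the 5′ end after decapping. These shares have no replicate error. The table held 24 of the 39 genes, 11 H2A and 13 H2B, and neither testis-type gene. SKIV2L took a median share of 0.547 of H2A and 0.511 of H2B mRNAs, where the median of all 7240 mRNAs was 0.267. A share over 0.5 was found for 16 of the 24, against 857 of all 7240 mRNAs. XRN1 took 0.117 and 0.111 against 0.337, and MTR4 0.199 and 0.330 against 0.319. Relative to the same total, AVEN stood at 0.487 for H2A and 0.378 for H2B, against 0.295.

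Among members the highest SKIV2L shares were those of the H2A mRNAs Hist1h2af (0.869) and Hist1h2ak (0.820), and of the H2B mRNA Hist1h2bj (0.712). Hist2h2bb (0.511) and Hist1h2bb (0.588) lay near the middle. Hist2h2be had the lowest, 0.0781, and the highest MTR4 share, 0.885. This is the member with no stem-loop match and a large share left at 120 min. Hist3h2a, which also decayed slowly, had shares of 0.426 (SKIV2L) and 0.461 (MTR4). Over the 24 members the SKIV2L share had a Spearman correlation of -0.07 with the share left at 120 min at day 4 in both clones. The authors' median RPKM of mRNAs with low values, 1.27 for Hist2h2be and 0.808 for Hist3h2a, limits how well their shares are known.

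**Figure D5:**
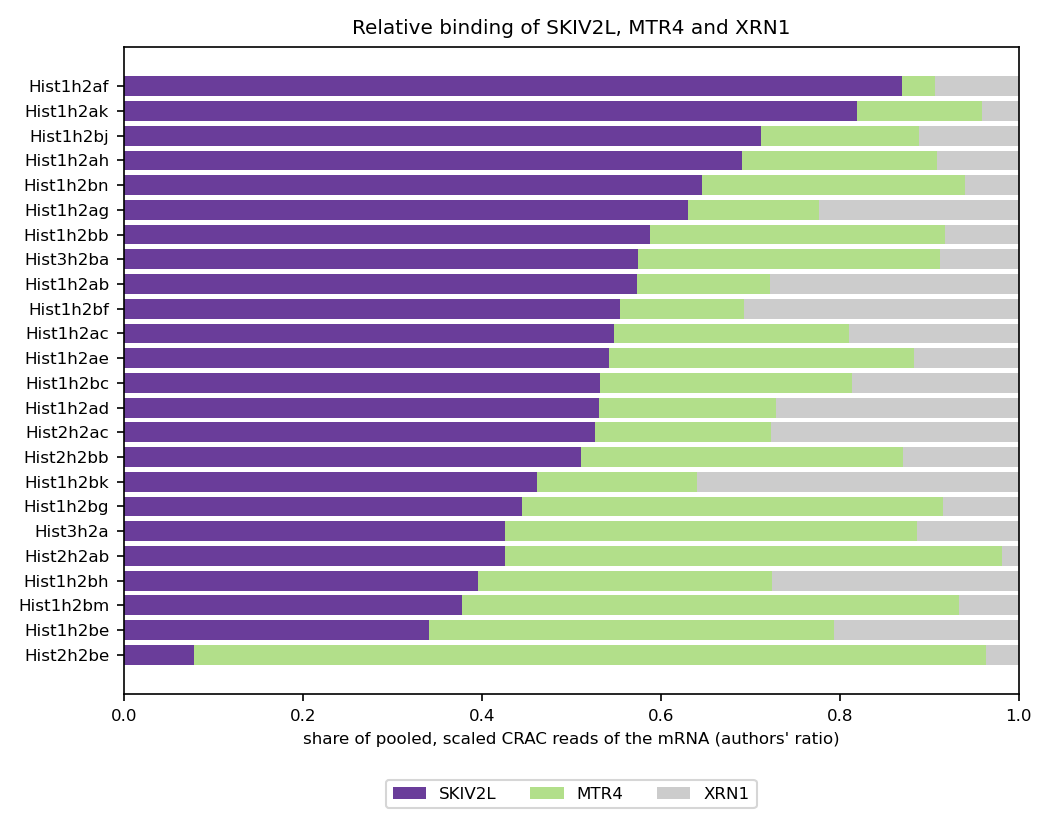
The authors' pooled share of CRAC counts (0 to 1) that fell to SKIV2L, MTR4 and XRN1, as stacked bars for the 24 members in the table, ordered by the SKIV2L share. The bars run from Hist1h2af (0.869 for SKIV2L) down to Hist2h2be, which stands apart at 0.0781 for SKIV2L and 0.885 for MTR4.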

How the data were processed

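The labels gave each library's group. The authors made the counts from 50 nt single-end reads of ribosome-depleted RNA, aligned to mm10 with STAR, keeping reads with a single place in the genome, and deposited raw counts per gene and per ERCC sequence. They also deposited CRAC ratios per mRNA from pooled libraries, the median RPKM of 3 tagged lines and transcript lengths (another unit, nt). The deposited half-lives and the authors' own fold changes and adjusted p-values after loss of SKIV2L or AVEN were not used. Gene symbols came from the reference annotation.

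Counts were tested in edgeR 4.0.16 (quasi-likelihood, filterByExpr, Benjamini-Hochberg over all genes, threshold 0.05) with size factors within a time point and 1 factor per time point from 34 ERCC sequences with a mean of at least 50 counts. Mock tests used 12 libraries, early decay the 23 at 0 and 120 min, and slopes each clone's libraries. Half-lives were fitted to ln(normalised count + 1). Alternatives were DESeq2 1.42.0, limma-voom (limma 3.58.1), TMM, other filters, each library's own ERCC total, fewer groups, a replicate block and leaving out replicates or times. The scripts were tested on simulated data. The members and lists were chosen with earlier results of these data known. Named members were the 4 H2A and 4 H2B genes with the highest mock CPM, the testis-type genes, those of clusters 2 and 3, and the largest and smallest change of each family per comparison; others were named after their values were seen.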

Additional observations from a re-analysis of the deposited data

Results flagged for a closer look

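The change with 4OHT differed between clones, by the interaction term of edgeR's quasi-likelihood test, for 16 members in mock levels. The lowest H2A and H2B values were -0.79 (Hist1h2af) and -0.63 (Hist1h2bc) on the log2 scale, clone 7E minus clone 5F. In the share left at 120 min the median over the 32 tested members was -1.18. Called there were 3 members, Hist1h2ak (-2.21), Hist1h2bb (-2.05) and Hist2h2bb (-1.48). The mock level of these 3 genes and their share left at day 0 were also higher in clone 7E than in clone 5F. The cause was not tested, and clone and genotype cannot be told apart. Skiv2l was also lower in clone 7E already at day 0.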

How the results depend on the processing

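Among 1199 values of named members recomputed under the alternatives, 1101 kept direction and side of the threshold, 48 lost and 21 gained significance and 29 changed sign. Of 112 recomputed counts 90 stayed within 1.5 times. Slower decay at 120 min was called for 22 to 27 members (clone 5F) and 21 to 27 (clone 7E). Depth limits the day 0 values at 120 min, where several members had 0 to 3 reads. The cause of the following changes was not tested.

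With each library's own ERCC total, 2 mock levels were higher at day 4 in clone 7E (27 lower), 15 were higher in clone 7E than in clone 5F at day 0, and 32 interaction values were lower. The clone 7E changes became -1.04 (Hist1h2ab), -0.86 (Hist1h2ai), -0.45 (Hist1h2ak), -0.85 (Hist1h2bb), -0.96 (Hist1h2bh), -0.61 (Hist1h2bj), -0.74 (Hist2h2ac) and -0.80 (Hist2h2bb), the mock interactions -0.92 (Hist3h2a) and -0.70 (Hist3h2bb-ps), the early change of Hist2h2be in clone 5F -0.046 and the early interaction of Hist1h2an 0.37. The difference between clones in early decay at day 0 was called for 5 members by DESeq2, 1 by limma-voom, 7 with no filter and 5 with only the groups compared. The early interaction was called for 1 by limma-voom and 9 with no filter. limma-voom gave Hist1h2ag -0.011 in clone 7E. Without mock libraries the slope was called slower for 0 (1 faster) in clone 5F, where Hist1h2aa was at -0.50, Hist1h2al at -0.16 and Hist1h2ba at -0.26, and for 1 in clone 7E, where Hist1h2an was at -0.30 and Hist1h2ba at -0.0079. Without 360 min it was called for 14 in clone 5F, and Hist1h2ag was at 0.017. From 0 and 120 min only, the median half-life of all tested members was 17.7 and 39.1 min (clone 5F, day 0 and labelled day 4) and 20.7 and 36.9 min (clone 7E).

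Leaving out each replicate number gave counts of 10 to 22 for clone 7E mock levels, 7 to 12 for the mock interaction, 1 to 3 for the difference between clones in early decay, 1 to 2 for its interaction, and 2 to 3 (clone 5F) and 2 to 4 (clone 7E) for slopes. Ranges that crossed 0 were -0.26 to 0.066 (Hist3h2bb-ps) and -0.11 to 0.058 (Hist3h2a) for clone 5F mock levels, -0.028 to 0.14 (Hist1h2ab) and -0.088 to 0.016 (Hist1h2be) for clone 7E, -0.16 to 0.050 (Hist3h2a) between clones, -0.28 to 0.59 (Hist1h2ag) and -0.055 to 0.20 (Hist2h2be) for early decay in clone 7E, -2.61 to 0.61 (Hist1h2an) for its interaction, and -0.11 to 0.064 (Hist1h2ag) for the clone 5F slope. Same-numbered libraries of different groups had median correlations of their deviations of -0.036 in mock cells, 0.20 at 120 min, 0.14 at 240 min and 0.15 at 360 min, against -0.012, -0.17, -0.13 and -0.12 for other pairs. Not every pair passed 0.1, so the numbers were not taken as a pairing by design, although those after the block hint at one. A replicate block gave counts of 29, 16, 25 and 16 for the mock comparisons, 25, 25, 4 and 4 for early decay and 8 and 11 for slopes.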
